A study of Mus musculus with 2 samples.

Results

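The insulin-like growth factor (IGF) system was measured here as 10 genes, which encode the ligands Igf1 and Igf2, the receptors Igf1r and Igf2r, and the binding proteins Igfbp2 to Igfbp7. They were taken by symbol: every probe set whose only annotated gene was one of these, 28 probe sets in all, out of 18193 genes with such a probe set. The RNA came from mammary epithelial cells of mice on day 18 of pregnancy, either Cuzd1-null or their Cuzd1-heterozygous littermates, on a predominantly C57BL/6 background. The heterozygous cells are the control group and carry 1 null allele. RNA of 5 mice per genotype was pooled and hybridised to 1 array, so each value below is a single reading of a pool and differences have no replicate error. The age of the mice was not stated, and no sort is recorded after enzymatic digestion of the gland.

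IGF1 and IGF2 are secreted growth factors that act through the tyrosine kinase receptor IGF1R, which signals through IRS adaptors to PI3K and AKT. IGF2R, which also carries mannose-6-phosphate-tagged lysosomal enzymes, takes up IGF2 for degradation, and the binding proteins hold the ligands in the extracellular space and limit or prolong their access to IGF1R. In the mammary gland the ligands support ductal and alveolar growth, much of it from the stroma, and IGFBP5 is known for its rise during involution, when it withdraws IGF survival signals from the secretory epithelium. Igfbp7 encodes a related protein with low affinity for IGFs.

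Both ligands and most binding proteins read higher in the null pool, while Igf1r was nearly equal in both pools at its brightest probe set and Igf2r read lower in the null pool. At the brightest probe set of each gene, Igf2 read 2.28-fold and Igfbp5 2.02-fold higher in the null pool, Igf1 and Igfbp4 each 1.47-fold higher, and Igfbp2 1.40-fold lower. Of the 10 genes, 8 had a ratio of null over heterozygous above 0 on the log2 scale and 2 had one below 0. Among all 11893 measured genes, 54.0% had a ratio above 0 and 46.0% below. The median over the 10 genes was 0.33, against 0.03 over all measured genes, whose quartiles were -0.18 and 0.23. The 2 genes at least 2-fold higher compare with 1.12% of all measured genes at that size, and 0 members were at least 2-fold lower, a size that 1.03% of all measured genes reached. No p-value is given, because 1 array per genotype allows no test.

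A gene counts as measured where at least 1 array was above its floor, the median signal of all non-control probe sets on that array, which was 34.2 intensity units in the heterozygous and 32.5 units in the null pool. Signals under the floor were set to it. All 10 genes were above both floors at their brightest probe set. Of the 28 probe sets, 23 were above both floors, 1 was above the null floor only and 4 were below both. Of the 24 measured probe sets, 18 had a ratio above 0 and 6 below 0, where 51.8% and 48.2% of all measured probe sets with 1 gene did. Of the 6, the Igf1 probe set above the null floor only read 17.3 and 33.9 units. It fell below 0 only because its heterozygous signal was set to the floor. At least 2-fold higher were 3 of the 24, set beside 0.950% of all measured probe sets.

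**Figure D1:**
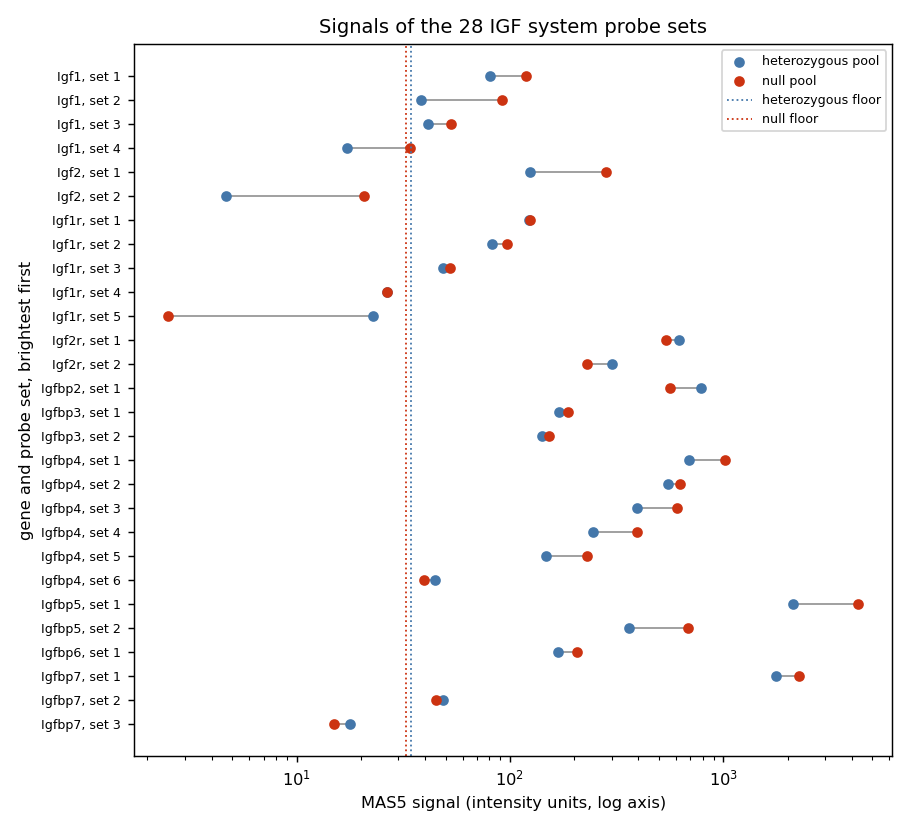
Deposited signal of every IGF system probe set in intensity units on a log axis, with the heterozygous pool in blue, the null pool in red and the floor of each array as a dotted line. Signals of different probe sets are not comparable with each other, so each row is read for the distance between its 2 points, such as 124 and 282 units for Igf2.

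The targeted gene gave no check of the labels, since Cuzd1 read 32.4 units in heterozygous and 34.0 units in null cells, next to the floors. Both arrays had a trimmed mean of 150.0 units, and the 3′ to 5′ signal ratio of the actin control was 1.27 and 1.24. The 12 probe sets of the poly-A controls had a median log2 ratio of -0.26. For the 9 probe sets of the hybridization controls, which are normally spiked in equally, the median log2 ratio was -0.23. Rescaling to them raises every ratio, moves the median of all measured genes from 0.03 to 0.26 and the share of higher genes among those 2-fold apart from 52.0% to 85.5%. Directions are therefore relative to the deposited scaling. A ratio between -0.23 and 0 at a probe set above both floors turns above 0 on the hybridization-control scale, which holds for every gene given below with such a ratio, and turns of the IGF system genes and of list medians are given where they occur. Of 13 luminal epithelial genes, 12 were measured, with the luminal keratin Krt18 at 8581 and 10003 units, and Prom1 was below both floors. Markers of other cell types were measured as widely, with 19 of 19 fibroblast and 15 of 15 endothelial genes. Being measured therefore does not show how pure the labelled epithelial cells were.

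Igf2, the fetal growth factor that is expressed from the paternal allele, had the highest ratio of the 10 genes. Its measured probe set read 124 units in the heterozygous and 282 units in the null pool, a log2 ratio of 1.19. A lower ratio was found for 99.5% of all measured genes, and the robust SD of the ratios among 594 genes of similar signal was 0.30. This SD holds real differences as well as noise and is no replicate error. The other Igf2 probe set read 4.66 and 20.7 units, below both floors, and gives no ratio, so the difference rests on 1 probe set.

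Igf1, the ligand that growth hormone induces, was read by 4 probe sets, and all 4 had the higher deposited signal in the null pool. The brightest read 80.3 and 118 units (log2 ratio 0.56). The next read 38.2 and 91.8 units, a ratio of 1.26 or 2.40-fold. The third read 41.5 and 53.1 units, a ratio of 0.36. These agree in direction and spread widely in size, and their signals lie close to the floors. The dimmest read 17.3 and 33.9 units, above the floor in the null pool only, and its floored ratio of -0.01 bounds nothing. The robust SD among genes of similar signal to the brightest was 0.39.

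The receptors showed smaller differences. Igf1r, which carries the growth and survival signal of both ligands, read 123 units in the heterozygous and 124 units in the null pool at its brightest probe set, a ratio of 0.01. Its 2 other measured probe sets read 82.4 and 96.9 units (0.23) and 48.5 and 52.1 units (0.10). All 3 lay on the same side of 0 as deposited, but the brightest turned to -0.02 with quantile normalization and when the median ratio of genes above both floors was set to 0. The remaining 2 probe sets of Igf1r were below both floors, at 26.5 and 26.4 units and at 22.7 and 2.51 units.

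Igf2r, the clearance receptor of IGF2, read lower in the null pool at both of its probe sets. They read 620.1 and 540.3 units (ratio -0.20) and 301 and 229 units (-0.39). The ratio of the brighter one was within the robust SD of 0.25 among genes of similar signal. Rescaled to the hybridization controls, the brighter one turned to 0.03. A probe set shared by Igf2r and the antisense transcript Airn was left out because it names more than 1 gene.

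**Figure D2:**
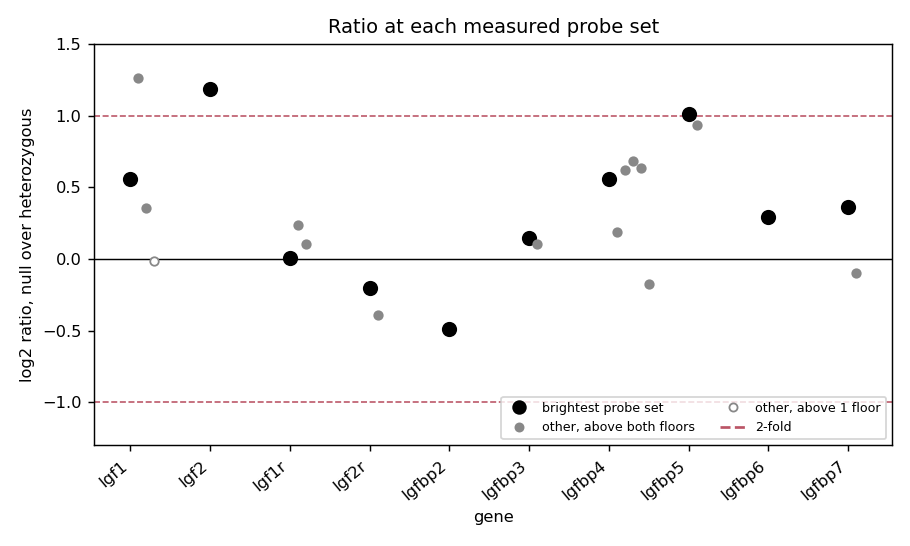
Log2 ratio of null over heterozygous at each of the 24 measured probe sets by gene, with large black points for the brightest probe set of a gene, grey points for its others, an open point for the one above a single floor, and dashed lines at 2-fold. Both Igfbp5 probe sets lie near the upper line, while those of Igf1 run from -0.01, the open point, to 1.26.

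Among the binding proteins, 5 of 6 had a ratio above 0, with a median of 0.33. The exception was Igfbp2, which is the next protein-coding gene to Igfbp5 on chromosome 1 in the RefSeq annotation of GRCm38.p6. Igfbp5 and Igfbp2 thus had the highest and the lowest ratio of the 6. The 250 bases before their annotated start sites are shown because these neighbours differed in opposite directions. Igfbp5 lies on the minus strand, with its window at chr1:72874866-72875115, and Igfbp2 on the plus strand, with the window of its first annotated start at chr1:72824230-72824479. Sequences are from RefSeq, GRCm38.p6, written 5′ to 3′, and capitals mark TATTTAA in Igfbp5 and GGGCGG in Igfbp2.
Igfbp5: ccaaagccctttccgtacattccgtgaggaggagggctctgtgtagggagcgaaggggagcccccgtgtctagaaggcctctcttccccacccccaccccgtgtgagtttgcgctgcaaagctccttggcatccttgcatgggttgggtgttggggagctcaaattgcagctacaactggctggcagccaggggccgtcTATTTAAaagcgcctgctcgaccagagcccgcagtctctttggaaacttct
Igfbp2: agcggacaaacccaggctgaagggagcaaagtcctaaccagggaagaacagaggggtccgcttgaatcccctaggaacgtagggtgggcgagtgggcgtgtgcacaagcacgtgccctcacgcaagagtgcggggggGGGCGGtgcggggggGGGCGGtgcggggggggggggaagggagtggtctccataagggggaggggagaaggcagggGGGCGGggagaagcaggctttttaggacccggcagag

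GC content was 58.8% in the Igfbp5 window and 67.2% in the Igfbp2 window shown, against a median of 52.4% over all 32851 windows of the same length in the table. TATTTAA, which resembles a promoter box for the basal machinery, began 51 bases before the Igfbp5 start and was in 4.18% of all windows, on either strand. GGGCGG, the core of the GC box, occurred 3 times before Igfbp2, at 113, 98 and 37 bases, and was in 32.7% of all windows. The window of a second Igfbp2 start, at chr1:72825137-72825386, had a GC content of 56.4% and no GGGCGG, so neither difference from Igfbp5 holds for it. Over the 14 windows of the 10 IGF system genes, GGGCGG was found in 6, those of Igf1r, Igf2r and Igfbp7 and some of the windows of Igf2 and Igfbp2, and TATAAA in 2 (Igfbp4 and Igfbp6), the latter being in 12.4% of all windows. TTCNNNGAA, the palindrome bound by STAT factors, was in 0 of the 14 and in 7.02% of all windows. Both strands were searched, a match describes the letters only, and no match says only that they are not in this window.

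Igfbp5, the binding protein of the involuting gland, read 2122 units in the heterozygous and 4278 units in the null pool, a log2 ratio of 1.01. Its other probe set read 359.7 and 686 units, a ratio of 0.93 or 1.91-fold. The 2 probe sets differed by 0.08, so the size was nearly the same at both, and it sits at the 2-fold line rather than clear of it. A lower ratio was found for 98.9% of all measured genes. Among 595 genes of similar signal the robust SD was 0.19 and the median ratio -0.05.

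Igfbp4, a binding protein that inhibits IGF action until the protease PAPP-A cleaves it, was read by 6 probe sets. The brightest read 693 and 1022 units (0.56). Of the others, 3 had ratios of 0.62, 0.69 and 0.63, at 395 and 608, 244 and 393, and 148 and 229.9 units. Another read 549 and 627 units, a ratio of 0.19. That one and the one with 0.69 carry the suffix _x_at, which marks possible cross-hybridization. The dimmest, at 44.6 and 39.4 units near the floors, had the opposite sign, -0.18. The 4 that lie together give 1.47-fold to 1.61-fold, but they were grouped after their values were seen. Over all 6 the ratios ran from -0.18 to 0.69.

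Igfbp7, which is abundant in vascular endothelium, read 1759 units in the heterozygous and 2265 units in the null pool, a ratio of 0.37. Its second probe set read 48.3 and 45.2 units, a ratio of -0.10, and the last was below both floors at 17.8 and 15.0 units. The difference thus rests on the brightest. Igfbp6, a binding protein that prefers IGF2, read 169 and 207 units, a ratio of 0.30 at its single probe set. That is about the size of the robust SD of 0.30 among genes of similar signal.

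Igfbp3, the main IGF carrier in blood, read 169.7 and 188 units (0.14) and, at its other probe set, 142 and 153 units (0.11). Both ratios were within the robust SD of 0.29 among genes of similar signal. Igfbp2, a binding protein made by many epithelia, read 789.8 units in the heterozygous and 564 units in the null pool, a ratio of -0.49 at its single probe set. Only 7.31% of all measured genes had a lower ratio, and the robust SD among genes of similar signal was 0.25. It was the 1 member whose ratio stayed below 0 at every scaling tried, at -0.26 when rescaled to the hybridization controls.

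Ordered by ratio, the genes ran Igf2, Igfbp5, Igfbp4, Igf1, Igfbp7, Igfbp6, Igfbp3, Igf1r, Igf2r and Igfbp2. Among genes with a pair of probe sets above both floors, 4714 in all, the robust SD of the ratio per probe set was 0.21, or 0.30 for a difference of 2 ratios. By this yardstick, which holds variation between probe sets and none between mice, 8 of the 9 steps between neighbours in the order were smaller than the spread. The larger one, 0.45, lay between Igfbp5 and Igfbp4.

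**Figure D3:**
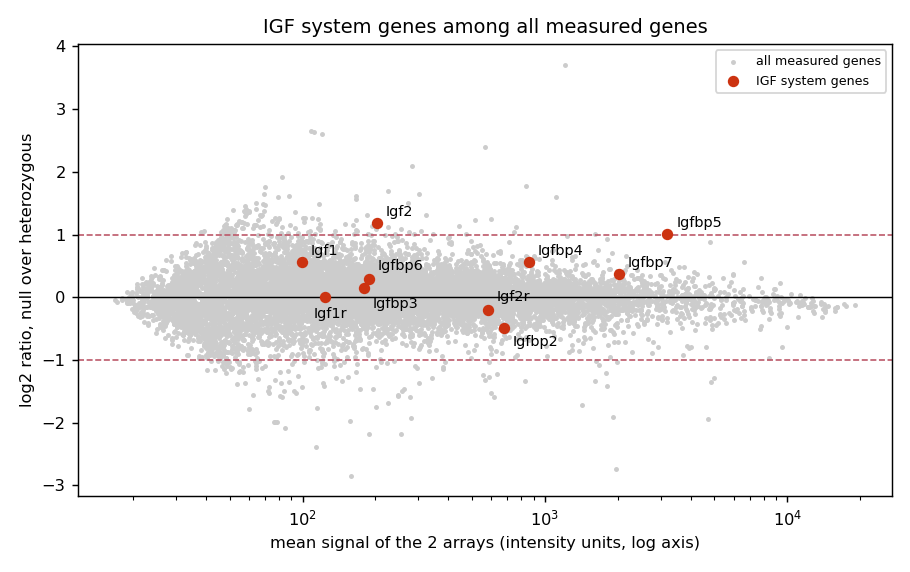
Log2 ratio of null over heterozygous against the mean signal of both arrays for all 11893 measured genes in grey, with the 10 IGF system genes in red at their brightest probe set and dashed lines at 2-fold. Igf2 and Igfbp5 lie at or above the upper line, and Igfbp2 has the lowest ratio of the 10.

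The rest of the pathway had ratios on both sides of 0. Over 6 lists of ligand relatives, binding protein proteases, receptor adaptors, PI3K and mTOR genes, hormone inputs and Igf2 regulators, 60 of 70 genes were measured. Of these, 27 had a ratio above 0 and 33 below, with a median of -0.02, where 54.0% of all measured genes were above 0. At the brightest probe sets, 0 of the 60 were 2-fold apart. Only 1.12% of all measured genes rose that far and 1.03% fell that far, so this 0 sets the lists little apart. Dimmer probe sets above both floors did pass 2-fold for Ghr (-1.08), Pik3ca (-1.05), Meg3 (-1.19) and Grb2 (1.03). The lists' medians were -0.06, 0.08, -0.10, 0.02, -0.04 and 0.01 in that order, and all 6 were above 0 when rescaled to the hybridization controls, from 0.13 to 0.30. With quantile normalization the PI3K and mTOR list turned to -0.01 and the Igf2 regulators to -0.02, and with the median ratio of genes above both floors set to 0 they turned to -0.01 and -0.03.

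Of the ligand relatives, Igfals, which forms a complex with IGF and IGFBP3 in blood, read 678 and 709 units (0.06), and Insr, the insulin receptor, 206 and 182 units (-0.18). Igfbp1, the neighbour of Igfbp3, was below both floors at 2.83 and 18.1 units, as were Igfbpl1, Insrr and Rxfp1. Of the proteases and their regulators, 3 of 6 measured genes had a ratio above 0. Pappa, the protease that cleaves IGFBP4, read 54.4 and 72.0 units (0.40), while Ctsd, cathepsin D, read 1502 and 1392 units (-0.11) and Htra1, a serine protease, 455 and 547 units (0.27). Stc2, an inhibitor of PAPP-A, had the lowest ratio of its list at its brightest probe set, 128 and 86.7 units (-0.56), but ratios of 0.45 and 0.54 at its 2 others.

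Downstream of the receptor, 4 of 10 measured adaptors had a ratio above 0. Irs1 read 688 and 728 units (0.08), Irs2, the other main IRS docking protein, 232 and 309 units (0.41), and Ptpn11, the phosphatase SHP2, 677 and 740.4 units (0.13). Sh2b2 was below the floor in the null pool, at 53.5 and 26.0 units, at least 1.65-fold lower. Of 25 measured PI3K, AKT, FOXO and mTOR genes, 13 were above 0. Rheb, the GTPase that activates mTOR, read 1576 and 1447 units (-0.12), Inpp5d, a phosphatase of blood cells, 75.9 and 97.8 units (0.37), and Ddit4, a stress-induced mTOR inhibitor, 1782 and 1079 units (-0.72), the lowest of its list.

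Among the hormone inputs, 7 of 8 genes had a ratio below 0 as deposited, while 5 were above 0 when rescaled to the hybridization controls. Ghr, the growth hormone receptor, read 1662 and 927 units (-0.84), with -0.71 and -1.08 at its other measured probe sets. Igf1, the ligand induced through it, read higher in the null pool, with signals close to the floors. A link between them was not tested. Socs3 and Stat5a, the 2 brightest of the list, had ratios of -0.01 and -0.04, and Stat5b had 0.26. Among the Igf2 regulators and imprinted genes, 5 of 10 measured genes were above 0, close to the 54.0% of all measured genes. Plagl1, an imprinted zinc finger factor, read 816 and 510.5 units (-0.68), Ctcf, the insulator protein of the Igf2 locus, 322 and 362 units (0.17), and Dlk1, at least 1.25-fold higher, 27.8 and 42.8 units. H19 was not analysed here.

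**Figure D4:**
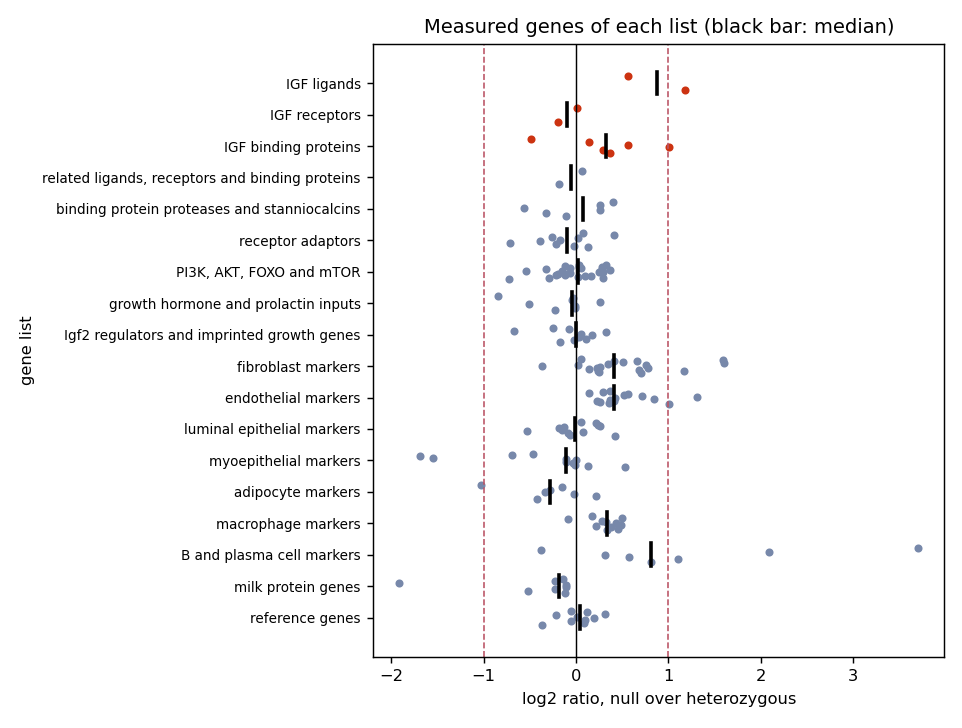
Log2 ratio of null over heterozygous for each measured gene of each list, with the IGF system lists in red, the others in blue, medians as black bars and dashed lines at 2-fold. The IGF ligands and binding proteins have medians of 0.87 and 0.33, the 6 other pathway lists lie from -0.10 to 0.08, and fibroblast, endothelial and macrophage markers lie from 0.34 to 0.42.

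Markers of other cell types also differed between the pools. Fibroblast markers had a ratio above 0 for 18 of 19 measured genes, with a median of 0.41. Their summed signal was 17262 units in the heterozygous and 21938 units in the null pool. Such sums mostly follow the brightest probe sets of a list, so they are compared between the pools only and not between lists. Collagen gene Col3a1, the brightest, read 3531 and 4685 units, and Pdgfra, Col1a2 and Loxl1 were 3.05-fold, 3.02-fold and 2.26-fold higher. The other Pdgfra probe set read 52.2 and 53.8 units, a ratio of 0.04. Postn, the 1 gene below 0, read 3421 and 2647 units (-0.37). Col1a1 and Fbln1 were nearly equal in both pools, with ratios of 0.06 and 0.02. Endothelial markers were above 0 for all 15, with a median of 0.42 and sums of 2931 and 4118 units. Cldn5 read 411 and 549 units, and Vwf and Cd34 were 2.49-fold and 2.01-fold higher. No fibroblast or endothelial marker was below both floors. Both medians stayed above 0 at the other scalings tried.

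Macrophage markers had 10 of 11 measured genes above 0, with a median of 0.34 and sums of 9142 and 11833 units, and Cd163 was below both floors. Lyz1, the brightest, read 4237 and 5309.5 units. B and plasma cell markers had 6 of 7 above 0, with a median of 0.81 and sums of 675 and 3172 units. Ighm, the IgM heavy chain, made up 172 and 2252 units of these sums. Igha, the 1 gene below 0, read 257 and 197 units (-0.38). Its other measured probe sets had ratios of -0.32 and -0.80. Cd79b was below both floors. Jchain was 4.25-fold higher, and Mzb1 at least 2.16-fold.

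The epithelial and adipocyte lists had medians below 0 as deposited. Luminal markers had 6 of 12 above 0, a median of -0.00 and sums of 60989 and 62179 units. Myoepithelial markers had 3 of 11 above 0, a median of -0.11 and sums of 27066 and 24758 units. Acta2, the brightest, read 12211 and 11312 units, while 2 basal keratins were lower, Krt15 by 3.22-fold and Krt17 by 2.93-fold. Adipocyte markers had 1 of 7 above 0, a median of -0.28 and sums of 8950.5 and 7906 units, with Cidec below both floors. Fabp4, the brightest, read 6829 and 6169 units, and Adipoq was at least 2.05-fold lower. Milk protein genes had 0 of 8 above 0, a median of -0.18 and sums of 110933 and 96863 units, with Csn1s2b 3.76-fold lower. Dimmer probe sets differed more from 0 in some of these genes. Those of Csn1s2a read 1448 and 126 units (-3.52) and 991 and 84.7 units (-3.55), and that of Csn3 473 and 219 units (-1.11). A brighter further set of Csn1s2a had -0.16 and the second set of Csn2 -0.12, so the median of -0.18 holds for the brightest probe sets only. Reference genes had 6 of 10 above 0 and a median of 0.05. On the hybridization-control scale the luminal, myoepithelial and milk protein medians were 0.22, 0.12 and 0.05, and that of adipocytes -0.05. With quantile normalization the luminal median was 0.07.

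The IGF ligands and binding proteins are known from stromal and vascular cells as well as epithelium, and the part of these cell types in the ratios of Igf1, Igf2, Igfbp4, Igfbp5 and Igfbp7 was not tested. In pooled bulk RNA a different number of cells of a type and a different amount of RNA per cell cannot be told apart. The ratios of Igf2 (1.19) and of Igfbp5 (1.01 and 0.93) were above the fibroblast, endothelial and macrophage medians. At their brightest probe sets, Igf1 (0.56) and Igfbp4 (0.56) were somewhat above these medians. Igfbp7 (0.37) and Igfbp6 (0.30) were close to them or below. At other probe sets above both floors Igf1 had 0.36 and 1.26, Igfbp4 ran from -0.18 to 0.69, and Igfbp7 had -0.10. Where these genes stand against the medians thus depends on the probe set. Single fibroblast genes such as Col1a2, with 1.60 and 1.80 at its probe sets, were higher than any IGF system gene.

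The 2-fold calls depended in part on the processing. Igf2 was at least 2-fold higher as deposited and had a ratio of 0.95 with a floor at the 75th percentile. Igfbp5 was under 2-fold in 3 alternatives: rescaling to a median ratio of 0, taking the median over probe sets, and leaving out probe sets with the suffixes _s_at and _x_at, with ratios from 0.93 to 0.98. Across all 9 alternatives the ratio stayed between 0.95 and 1.41 for Igf2 and between 0.93 and 1.24 for Igfbp5, so their direction did not turn.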

How the data were processed

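The deposited values are 1 MAS5 signal intensity per probe set and array on a linear scale, which, per the submitters' processing notes, the authors made with Expression Console of Affymetrix, version 1. Total RNA of 5 mice per genotype was pooled, and labelled antisense RNA was made from 100 ng, per the labels' protocols. No source used here names a genome build. Each array held 45101 probe sets, 64 of them controls. With the top and bottom 2% left out, both arrays had a mean of 150.0 units, so 1 global factor scales each array and assumes equal total signal. The number of arrays limits the precision.

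Names came from the platform's annotation, where 34958 probe sets had 1 gene symbol, 932 had several and 9160 non-control probe sets had none listed. Symbols were updated by Entrez ID through RefSeq (34754 probe sets). Each array was floored at its median over 45037 non-control probe sets, a gene was read at the probe set with the highest mean signal, and null was divided by heterozygous signal for a log2 ratio. Robust SDs come from the median absolute deviation, in 20 bins of signal. Of the other pathway lists, the rule named the 2 brightest genes, the highest and the lowest ratio and any gene 2-fold apart; of the cell type lists, the brightest and those 2-fold apart. Where another gene is named, it was chosen after its values were seen. The members and lists were chosen with earlier results of these data known. No test was run, since each genotype has 1 array. The steps were tested on simulated data with planted differences. Alternatives changed the floor, the scaling, the probe set rule and the pseudocount. Python 3.11.15, pandas 2.3.3 and numpy 2.4.6 were used.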

Additional observations from a re-analysis of the deposited data

How the results depend on the processing

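There were 9 alternatives, each changing 1 choice except the pseudocount, which also took the place of the floor. The number of members at least 2-fold higher, 2 as deposited, was 1 with a floor at the upper quartile (75th percentile), where Igf1 and Igf1r were no longer measured, with the median ratio of genes above both floors set to 0, with the median over measured probe sets, and with probe sets carrying neither suffix. It was 2 under the other 5, and 0 members were 2-fold lower under all 9. The median over members and that over binding proteins were both 0.56 on the hybridization-control scale and moved by less than 0.21, the robust SD between probe sets, under the other 8. On that scale Igf2r was 0.03 and Igf1r 0.24. Igfbp7 was 0.13 as the median over its probe sets. Over all measured genes, the counts at least 2-fold higher and lower were 133 and 123 as deposited, 666 and 817 with a floor at the lower quartile (25th percentile), 24 and 39 at the upper one, 370 and 368 with no floor, 60 and 85 with log2(signal + 32) and no floor, and 349 and 59 on the hybridization-control scale. No paired analysis was possible because each genotype has 1 array. Signal over background limits the dim probe sets, of which 4 were below both floors and gave no ratio.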

Other observations

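The protein-coding genes next to the 10 IGF system genes in the RefSeq annotation of GRCm38.p6 were read in the same way, chosen after the values were seen. Of 10 such neighbours that were measured and are no members, 6 had a ratio above 0 and 4 below, and 0 were at least 2-fold apart. Ins2, the insulin gene next to Igf2, read 39.6 units in the heterozygous and 62.2 units in the null pool. Its ratio of 0.65 was the highest of the 10 neighbours, but its heterozygous signal was close to the floor of 34.2 units. Synm, beside Igf1r, had 0.33, Top2a, beside Igfbp4, 0.37 and Polr2b, beside Igfbp7, 0.33. The lowest was -0.18 for Adgrl3, on the other side of Igfbp7.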
